A study of Mus musculus with 2 samples.

Results

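The 9 genes described here are transcription factors and one co-repressor by which the layers of the cerebral cortex are told apart: Cux1, Cux2, Pou3f2, Rorb, Fezf2, Bcl11b, Tbr1, Foxp2 and Tle4. They were chosen by symbol from the 55450 genes counted in a droplet (10x Genomics) RNA-sequencing series of mouse cortex, and all 9 were found, each as a single entry. Their molecules (UMIs, the unique tags that count RNA molecules) were read in glutamatergic-type cells, defined as cells with at least 1 UMI of Slc17a7, the vesicular glutamate transporter of cortical excitatory neurons, and at most 1 UMI of Gad1 and Gad2 together, the enzymes that make GABA. This gate held 5599 of 8755 control cells and 4492 of 7571 cells of the injury library.

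The series compared the cortex of C57BL/6 mice after a model of preterm white matter injury (WMI), in which the right common carotid artery was tied and the pups were kept in low oxygen, with the same side of the cortex of control mice. The labels place the operation at postnatal day 7, the hypoxia at 1 h and the sampling at postnatal day 14, when the mice were 2 weeks old, and describe nuclei; what the control mice underwent is not given there. The study's own text gives an earlier operation and sampling, a longer hypoxia, dissociated cells and several replicates per group, and speaks of the control both as sham and as a side of the brain. The age, the preparation, the source of the control tissue and the number of animals behind each library are therefore uncertain. There was 1 library per group in the labels and files, so no difference between control and WMI could be tested against the spread between animals, and every interval below is a 95% interval that covers counting error only.

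Cortical excitatory neurons are born in order from deep to upper layers, and each kind is held to its fate by transcription factors that often repress each other. Cux1, Cux2 and Pou3f2 (Brn2) belong to the neurons of the upper layers that project within the cortex. Rorb is the nuclear receptor of layer 4, which receives thalamic input. Fezf2 and Bcl11b (Ctip2) direct the neurons of layer 5 that project below the cortex, and Tbr1, Foxp2 and Tle4 mark the corticothalamic neurons of layer 6. Several of these genes are also used outside excitatory neurons, such as Bcl11b in interneurons.

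In the GENCODE M21 annotation of GRCm38, which holds all 55450 gene identifiers of the files, Cux1 lies at chr5:136248135-136567490, Cux2 at chr5:121856366-122050102, Pou3f2 at chr4:22482780-22488366, Rorb at chr19:18930605-19111196 and Fezf2 at chr14:12342094-12348189. Bcl11b lies at chr12:107910403-108003602, Tbr1 at chr2:61802930-61814114, Foxp2 at chr6:14901349-15441977 and Tle4 at chr19:14448150-14598051. Tbr1 and Foxp2 are on the plus strand and the other 7 on the minus strand. Cux1 overlaps 4 other annotated genes, 3 of them on its own strand. Cux2 overlaps 2 on the opposite strand and Foxp2 overlaps 1 on its own strand. Where the overlap is on the same strand, reads can match more than 1 gene. The other 6 overlap none.

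The libraries held 66470806 UMIs over 10288 barcodes (control) and 60568639 over 8354 (WMI). After filters and the removal of predicted doublets the median cell had 4197 and 4970 UMIs, and 28 barcodes were present among the kept cells of both libraries. Cells with a UMI of Xist, the RNA of the inactive X chromosome, made up 0.0571% of kept control cells and 63.2% of kept WMI cells, so a difference in the sex of the animals cannot be told apart from the injury.

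The Slc17a7 gate was not a pure set of excitatory neurons. Clusters were built without the 9 genes and named from marker lists that hold none of them, and 12 of the 31 clusters were excitatory neuron-like. Slc17a7 itself was 1 of the 8 markers of the class. These 12 clusters gave 2458 control gate cells, 43.9% of the gate, and 1893 WMI gate cells, 42.1%. Of the excitatory neuron-like cells themselves, 85.9% (control) and 87.5% (WMI) passed the gate, against 48.5% and 43.9% of the microglia-like, 50.3% and 44.5% of the astrocyte-like, and 8.17% and 11.1% of the interneuron-like cells. A single Slc17a7 UMI had admitted 42.7% of the control and 44.1% of the WMI gate cells.

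Microglia-like cells made up 3.82% of the control and 11.0% of the WMI gate, and OPC-like cells, the precursors of oligodendrocytes, 4.04% and 9.17%. Clusters left unnamed gave 40.7% and 27.8%. Most of these came from a single library: the unnamed cluster 0 held 1301 control and 41 WMI gate cells, cluster 2 held 819 and 4, cluster 8 held 3 and 370, and cluster 9 held 39 and 301. Each value below is therefore given for the excitatory neuron-like gate cells, with the value for the whole gate where it differs. The median depth was close between libraries in the former, at 10166.5 and 10311 UMIs, and further apart in the whole gate, at 5153 and 6258.

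**Figure D1:**
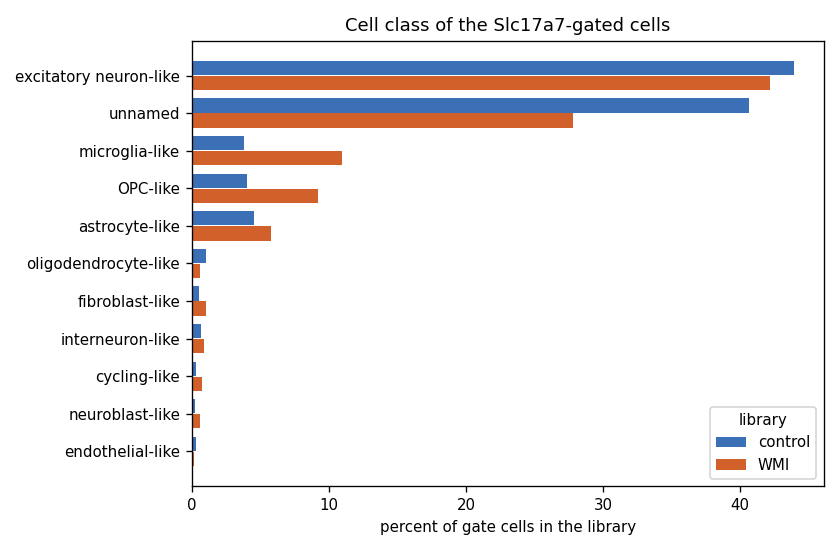
Share of the gate cells of each library (horizontal axis, percent) that fell in each cell class (vertical axis), with control in blue and WMI in orange. Excitatory neuron-like cells were 43.9% and 42.1% of the gate, and the microglia-like and OPC-like bars are longer in WMI.

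Most members were not at their highest in excitatory neurons. Of the 8 named classes with at least 50 cells in each library, the excitatory neuron-like class was the highest in both libraries for 1 member, Fezf2. The share of all genes highest in this class is not given, so the count describes the members only. Levels are given in CPM, the UMIs of a gene per 1000000 UMIs of the cells named. The Fezf2 interval of the excitatory neuron-like cells overlapped those of the astrocyte-like and microglia-like cells in the control and in WMI, so that order is within counting error.

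Rorb was highest in astrocyte-like cells, at 1315 (control) and 1451 (WMI) CPM, against 384 and 244 in excitatory neuron-like cells. Pou3f2, a POU-domain factor also used in neural progenitors, stood at 54.9 and 76.9 in astrocyte-like and 14.5 and 14.8 in excitatory neuron-like cells. Tle4, a Groucho-type co-repressor, was also highest in astrocyte-like cells, at 337 and 322, against 173 and 167. In these 3 genes the astrocyte-like interval lay above the excitatory neuron-like interval in both libraries.

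Cux1 was highest in microglia-like cells, at 362 (control) and 495 (WMI) CPM, and stood at 260 and 208 in excitatory neuron-like cells. Cux2 was highest in the oligodendrocyte-like cells, at 306 and 318, a class of 91 and 51 cells, against 223 and 158 in excitatory neuron-like and 220 and 157 in interneuron-like cells. Foxp2 reached 1132 and 573 in fibroblast-like cells, a class of 60 and 86 cells, against 161 and 86.4. The fibroblast-like levels rest on 377 and 260 UMIs.

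Bcl11b was found at 119 and 93.2 CPM in neuroblast-like cells (35 and 41 UMIs), at 107 and 84.5 in interneuron-like cells and at 67.8 and 68.05 in excitatory neuron-like cells. In astrocyte-like cells it stood at 22.5 and 18.2. Fezf2 was at 12.9 and 16.1 in excitatory neuron-like and 2.60 and 5.75 in interneuron-like cells. Tbr1, a T-box factor of glutamatergic lineages, was at 18.1 and 13.6 in excitatory neuron-like and 6.08 and 4.601 in interneuron-like cells. The neuroblast-like level of Tbr1 was the highest in the control, at 20.4, but rests on 6 UMIs and its interval holds the excitatory neuron-like level.

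**Figure D2:**
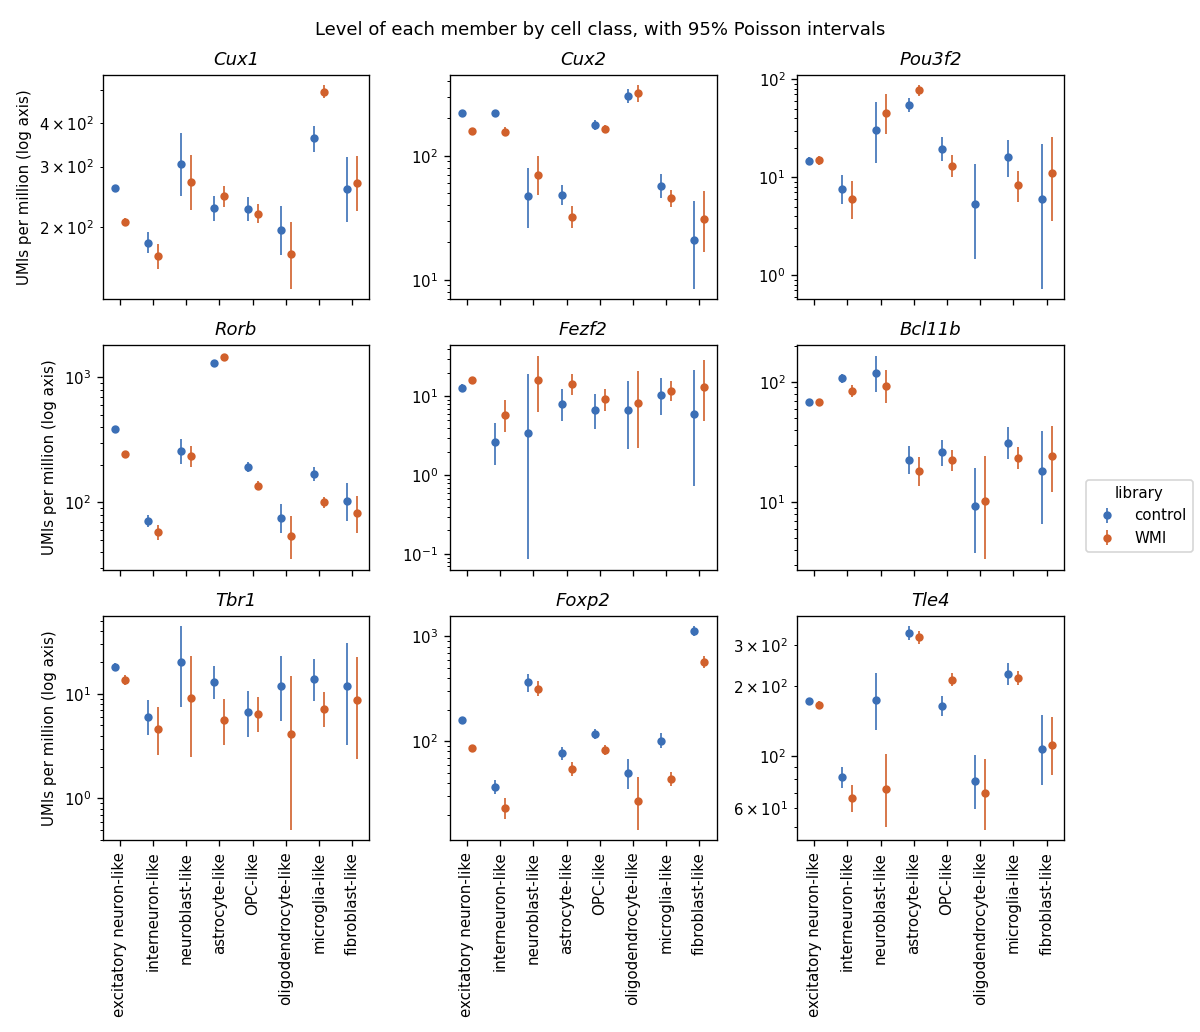
Level of each of the 9 genes (vertical axes, CPM on a log axis) in 8 cell classes (horizontal axes), control in blue and WMI in orange, with 95% Poisson intervals; a class at 0 would not be drawn. Rorb, Pou3f2 and Tle4 peak in astrocyte-like, Foxp2 in fibroblast-like and Cux1 in microglia-like cells.

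Free RNA in the droplets can give UMIs to cells that do not make a gene, and microglia-like cells served to gauge it. At a fixed 2000 UMIs per cell, Foxp2 was detected in 20.2% of control excitatory neuron-like gate cells and in 18.1% of control microglia-like cells, whose median depths were 10166.5 and 3106 UMIs before thinning. In the WMI library the shares were 12.6% and 8.31%, at median depths of 10311 and 3104. Rorb was detected in 30.1% and 29.3% of these classes in the control and in 21.7% and 19.2% in the WMI library. For Cux1 and Tle4 the microglia-like share was the larger: Cux1 was in 32.8% of excitatory neuron-like and 47.4% of microglia-like control cells, and Tle4 in 23.3% and 35.7%. Cux1 and Tle4 were high in microglia-like cells by level too. Level and share rest on the same UMIs, so they cannot tell RNA made in these cells from free RNA. Microglia-like cells are thus no clear gauge of free RNA for that pair. The same limit holds for Rorb and Foxp2, and it was not tested.

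Well above the microglia-like share in both libraries were Cux2, with 28.9% and 24.8% of excitatory neuron-like gate cells against 11.2% and 9.97%, and Bcl11b, with 11.5% and 11.1% against 5.46% and 5.57%. Pou3f2 (3.34% and 3.17%), Fezf2 (2.69% and 4.07%) and Tbr1 (4.11% and 3.17%) were seen in few cells at this depth, and the microglia-like shares were 2.73% and 1.76%, 2.48% and 2.54%, and 1.99% and 1.27%. Over the excitatory neuron-like cells as a whole, the shares of Cux1, Rorb and Tle4 were thus close to or below the microglia-like share. The same held for Foxp2 in the control. Because the depths before thinning differed, close shares do not show how much of the excitatory neuron-like share is free RNA, which was not tested. The clusters are described one by one.

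Cux1 and Cux2 were concentrated in the same clusters in both libraries. The 3 upper layer-like clusters (1, 7 and 25, named from a list with genes such as Ccbe1 and Rasgrf2) and the claustrum-like cluster 28 held 80.8% (control) and 75.8% (WMI) of the Cux1 UMIs and 85.5% and 88.0% of the Cux2 UMIs of excitatory neuron-like gate cells, with 44.2% and 44.7% of the cells. Neither gene had itself served to build or name the clusters. Annotated genes that overlap Cux1 were not left out when the clusters were built, and whether any of them served is not given.

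Cux1, a homeodomain factor that shapes the dendrites of upper-layer neurons, was highest in cluster 28, at 912 and 905 CPM, and next in cluster 7, at 571 and 376. Its median over the 12 clusters was 105 and 118, and its lowest level was in the layer 5 extratelencephalic-like cluster 20, at 52.5 and 43.7. The highest cluster was thus 8.67 and 7.68 times the median. Cux2, the paralogue with the narrower use, stood at 673 and 615 in cluster 28, at 483 and 401 in cluster 7 and at 389 and 301 in cluster 1. In the layer 6 corticothalamic-like clusters 10 and 17 it was at 22.03 and 13.3, and 18.97 and 16.7.

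Cux2 also marked cluster 15, which no layer list named and which was led by Tshz2, Chrm2 and Ntng2: 268 CPM in the control and 117 in WMI. In the Rorb-rich cluster 19 the Cux2 levels were 150 and 83.98. In both clusters the interval of the log2 ratio of WMI to control lay below 0, from -1.47 to -0.93 and from -1.21 to -0.49. Over the 11 clusters with at least 50 gate cells in each library, Cux2 was lower in WMI in 10 and higher in 1.

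Pou3f2 was sparse. It was highest in clusters 25 (23.4) and 7 (23.3) in the control and in clusters 7 (28.02) and 1 (24.4) in WMI, with medians over the clusters of 8.65 and 8.37. The upper layer-like clusters 1 and 7 stood above the median in both libraries, and cluster 25 rested on 12 and 7 UMIs.

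Rorb was carried by clusters 7 and 19, with 77.3% of its control UMIs and 57.4% of its WMI UMIs in excitatory neuron-like gate cells, from 21.8% and 16.1% of the cells. In cluster 7, which had 5 of 8 upper-layer markers, the level was 1536 CPM in the control and 933 in WMI. In cluster 19, which met 3 of 5 layer 4 markers and so was not given that name, it was 1016 and 961. Cluster 13, led by Il1rapl2 and Scube1, held 201 and 309, and the median over the 12 clusters was 79.6 and 90.5.

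The libraries differed in Rorb in opposite directions between these clusters. In cluster 7 the log2 ratio of WMI to control was -0.72 (-0.79 to -0.65), in cluster 19 it was -0.08 (-0.19 to 0.03), and in cluster 13 it was 0.62 (0.46 to 0.78). At 2000 UMIs per cell, 80.9% of control and 60.4% of WMI cells in cluster 7 were Rorb-positive, against 73.9% and 67.5% in cluster 19. In the other excitatory clusters the positive share was 7.84% to 23.8% in the control, below the microglia-like 29.3% in all 10. In WMI it was at most 23.005%, in cluster 13, against 19.2% in microglia-like cells. Cluster 13 thus had a higher level in WMI at nearly the same share of positive cells (23.8% and 23.005%).

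Foxp2 and Tle4 shared the corticothalamic-like and near-projecting-like clusters. Clusters 10, 17 and 23 held 80.6% (control) and 77.3% (WMI) of the Foxp2 UMIs and 77.0% and 76.3% of the Tle4 UMIs, from 22.7% and 18.9% of the excitatory neuron-like gate cells. Foxp2, a forkhead factor, peaked in cluster 10, named layer 6 corticothalamic-like from a list with Syt6 and Hs3st4, at 832 and 798 CPM. In cluster 17, the other cluster of that name, it was at 248 and 224, and in the near-projecting-like cluster 23 at 221 and 128. The medians over clusters were 43.8 and 25.1. In cluster 10 Foxp2 was detected in 78.6% and 70.6% of cells, far above the microglia-like shares of 18.1% and 8.31%.

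Tle4 did not separate these clusters in the same way as Foxp2. It was highest in cluster 23, at 724 and 855 CPM, with 632 and 657 in cluster 10 and 627 and 727 in cluster 17. The medians over clusters were 56.4 and 48.0. Clusters 10 and 17, whose Foxp2 intervals lay far apart, had Tle4 intervals that overlapped in both libraries.

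Bcl11b, a zinc-finger factor, was highest in the layer 5 extratelencephalic-like cluster 20 and the near-projecting-like cluster 23: 285 and 283 CPM in the control and 302 and 309 in WMI. In control and WMI it stood at 194 and 174 in cluster 10 and at 185 and 170 in cluster 17. These 4 clusters held 83.5% and 79.9% of its UMIs. Cluster 14, led by Dnah14 and Col6a1, had an intermediate level of 57.1 and 71.0, and the other 7 clusters were at most at 35.2 in both libraries.

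Fezf2, a zinc-finger factor upstream of Bcl11b in subcortical projection neurons, followed the same pair at a low count: 61.0 and 78.0 CPM in cluster 23 and 33.9 and 42.4 in cluster 20. The medians were 7.26 and 11.1, and it was listed at 0 in cluster 28 of the control. Cluster 10 held 22.6 and 29.1. Cluster 13, with 27.6 and 23.3, also held Fezf2, although its Bcl11b was at 12.8 and 11.98.

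Tbr1 had a flatter pattern. It was highest in cluster 28, at 40.2 and 46.1 CPM, and next in cluster 10, at 36.7 and 33.2, over medians of 16.9 and 12.5. The ratio of the highest cluster to the median was 2.37 and 3.67, while for Foxp2 it was 18.99 and 31.8. The lowest levels were in cluster 19 in the control (7.09) and in cluster 20 in WMI (1.37, from 2 UMIs).

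**Figure D3:**
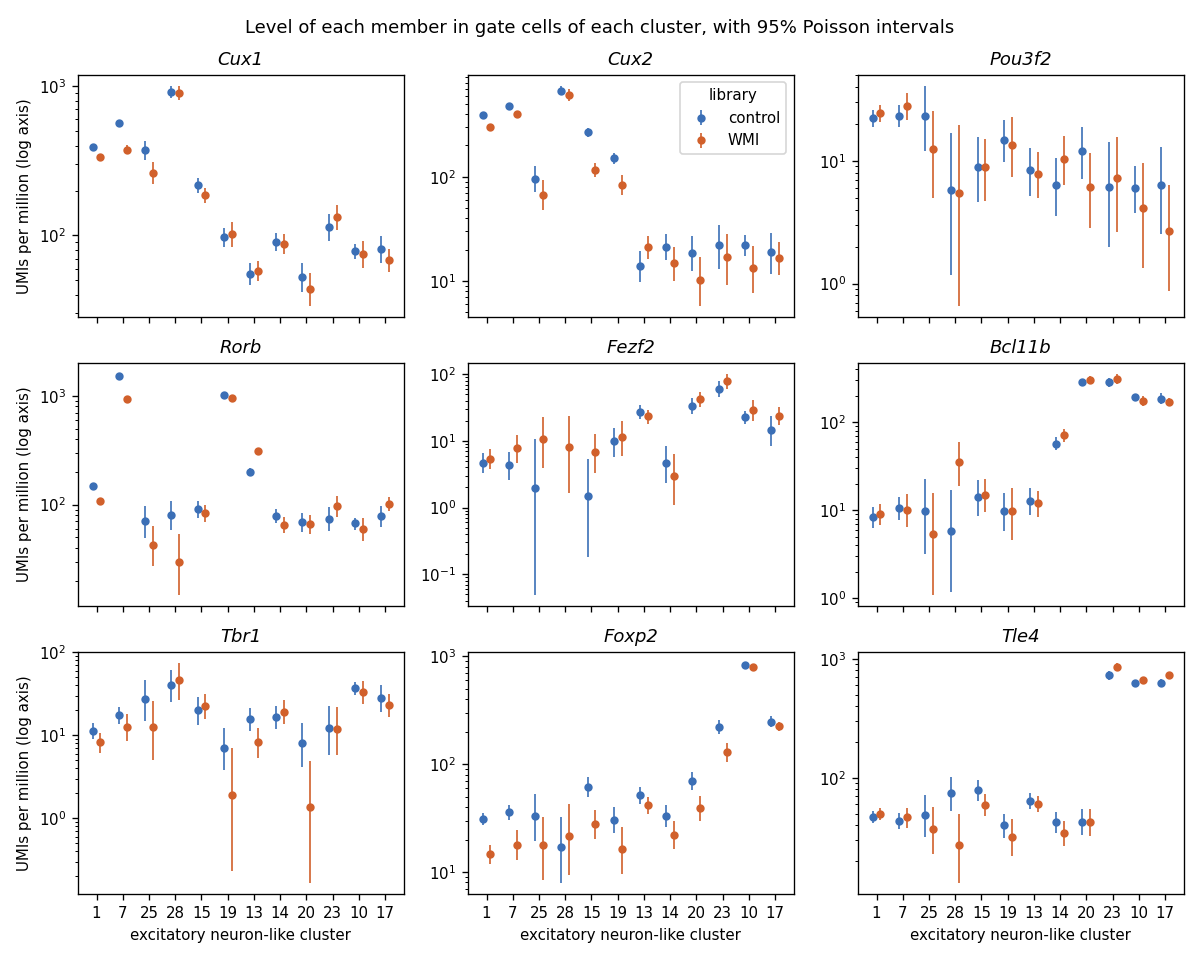
Level of each gene (vertical axes, CPM on a log axis) in the gate cells of each of the 12 excitatory neuron-like clusters (horizontal axes, cluster numbers, from upper layer-like on the left to layer 6 corticothalamic-like on the right), control in blue and WMI in orange, with 95% Poisson intervals; levels of 0 are not drawn. Foxp2 stands at 832 and 798 in cluster 10 and Rorb at 1536 and 933 in cluster 7.

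Over the 12 clusters, Pearson's r between the log2 levels in the control and in WMI was from 0.84 for Pou3f2 to 0.99 for Cux1. The points share clusters that were called jointly on both libraries.

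Each cell was thinned to 2000 UMIs and assigned to the set with most UMIs: upper (Cux1, Cux2, Pou3f2), Rorb, or deep (Fezf2, Bcl11b, Tbr1, Foxp2, Tle4). In the whole gate, 24.8% of control and 28.7% of WMI cells were upper-led, a difference of 3.92 percentage points (2.10 to 5.75). Rorb led 16.3% and 12.5%, a difference of -3.72 points (-5.15 to -2.27). The deep set led 25.3% and 23.7%, a difference of -1.63 points (-3.40 to 0.15).

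In the excitatory neuron-like gate cells the upper-led share was 28.4% and 30.7%, with a difference of 2.35 points whose interval (-0.41 to 5.13) reached below 0. The Rorb-led share was 14.8% and 11.4%, and its difference of -3.49 points had an interval of -5.51 to -1.43. The deep-led share was 27.99% and 25.5%, a difference of -2.51 points (-5.18 to 0.18). Cells tied between sets were 10.7% and 8.51%. Cells with no UMI of any member were 18.1% and 23.9%, and this share was 5.80 points higher in WMI (3.32 to 8.29). The interval of the Rorb-led difference lay below 0 and that of the cells without any member above 0 in both populations. The Rorb-led difference of the excitatory neuron-like cells was -1.57 points (-4.91 to 1.80) with a stricter gate (at least 3 Slc17a7 UMIs and no UMI of Gad1 or Gad2) and -1.72 (-4.73 to 1.59) in cells without a UMI of Xist, so both intervals then held 0. Among microglia-like cells Rorb led 9.18% (control) and 5.18% (WMI), and the Rorb level was 170 and 99.95 CPM there; the part of free RNA in the difference was not tested.

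Upper-led cells also made up 27.5% of control and 43.2% of WMI microglia-like cells, and the microglia-like share of the gate was itself larger in WMI. Without Cux1 in the upper set the upper-led difference of the gate was -0.40 points (-1.77 to 0.98). With the unnamed cluster 5, of 114 control and 533 WMI gate cells, added to the excitatory neuron-like cells, the difference of those cells went from 2.35 to -0.90 points (-3.44 to 1.65). The upper-led difference thus changed sign with these choices, and the intervals of both alternatives held 0.

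The identities differed by cluster. In cluster 10 the deep set led 91.8% of control and 88.1% of WMI cells, in cluster 17 81.4% and 81.6%, and in cluster 23 78.9% and 86.5%. In cluster 1 the upper set led 63.3% and 58.7%. Cluster 7 was divided: Rorb led 43.7% and the upper set 32.9% of control cells, while in WMI Rorb led 31.7% and the upper set 38.3%. In cluster 19 Rorb led 57.2% and 58.4%. In cluster 20 the deep set led 49.0% and 46.9%, and 27.5% and 30.2% of its cells held no member. Clusters 13, 14 and 15 had no set that led most of their cells. In cluster 13 the deep set led 22.8% and 15.96%, Rorb 15.8% and 18.8% and the upper set 8.42% and 14.1%, and 45.05% and 45.07% held no member. In cluster 14 no member was found in 52.3% and 45.7%. In cluster 15 the upper set led 35.96% and 32.03%, and 32.02% and 42.97% held no member.

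Cells with UMIs of both an upper and a deep member made up 13.6% of control and 11.9% of WMI excitatory neuron-like gate cells, a difference of -1.64 points (-3.66 to 0.40). In the whole gate they were 18.4% and 17.5%. Cells that belong to no projection layer showed such a mixture more often: 27.5% and 29.0% of microglia-like, 27.3% and 26.5% of OPC-like and 22.8% and 18.3% of interneuron-like cells. The mixed share of excitatory neuron-like cells was thus not above that of these classes. Cux1 and Tle4 were high by level in microglia-like cells, so that class is no baseline free of the members. The other classes are none either. Interneuron-like cells held Cux2 at 220 and 157 CPM and Bcl11b at 107 and 84.5. OPC-like cells held Cux1 at 226 and 219 CPM and Tle4 at 165 and 213.

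Of the 36 pairs of members in excitatory neuron-like gate cells, 11 were found together more often than their separate shares give in the control (interval of the odds ratio wholly above 1) and 10 less often. In WMI 8 were found more often and 7 less often. Of these, 7 pairs were above 1 in both libraries, 7 were below 1 in both, and 0 changed side. In the whole gate the counts were 9 and 9 in the control and 8 and 7 in WMI. The share of pairs of other genes with such intervals is not given, so the counts are not shown to be particular to the members.

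The strongest association was Foxp2 with Tle4, both corticothalamic factors, with an odds ratio of 5.40 (4.34 to 6.72) in the control and 4.32 (3.22 to 5.81) in WMI. Foxp2-positive cells were also Tle4-positive in 51.1% and 46.4%. Bcl11b with Tle4 gave 4.08 and 3.10, Bcl11b with Foxp2 3.45 and 2.89, and Cux1 with Cux2 3.13 and 2.79. Cux1 with Rorb was above 1 at 1.79 and 1.61.

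Of the pairs whose interval excluded 1, Cux2 with Bcl11b had the lowest odds ratio in both libraries, with 0.18 (0.11 to 0.29) in the control and 0.16 (0.08 to 0.29) in WMI. Cux2 with Foxp2 gave 0.25 and 0.32, and Cux2 with Tle4 0.31 and 0.40. Pou3f2 with Fezf2 was found together in 0 control cells, where 82 cells held Pou3f2 and 66 held Fezf2, and its interval (0 to 1.66) held 1. Of the 15 pairs of an upper and a deep factor, 7 lay below 1 in the control and 6 in WMI, and 0 lay above. In the whole gate 6 lay below 1 in each library, and 1 lay above in WMI: Pou3f2 with Tbr1, at 4.26 (2.07 to 8.09) from 12 cells with both, the highest odds ratio of the WMI gate. Of the 10 pairs of deep factors, 6 and 5 lay above 1 and 0 below. Fezf2 with Bcl11b was at 1.74 (0.84 to 3.34) and 2.19 (1.16 to 3.94), from 12 and 16 cells with both.

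The pairs that were placed by cluster followed the clusters to different degrees. Of the control cells with both Foxp2 and Tle4, 93.3% lay in clusters 10, 17 and 23, and 91.9% in WMI. These clusters held 22.7% and 18.9% of the excitatory neuron-like gate cells. For Bcl11b with Tle4 the shares there were 90.1% and 92.9%. Of the cells with both Cux1 and Cux2, 89.3% and 90.9% lay in clusters 1, 7 and 28, which held 42.1% and 42.02% of the cells. Cux2 with Rorb was less concentrated, with 67.2% and 57.6% in cluster 7, which held 16.2% and 11.998% of the cells. For Fezf2 with Bcl11b, clusters 20 and 23 held 41.7% (15.2 to 72.3) of the 12 control cells with both. In WMI they held 75% (47.6 to 92.7) of 16. These 2 clusters held 7.24% and 8.99% of the cells. When the odds ratio was pooled within clusters (Mantel-Haenszel, an analysis added after the data were seen), Foxp2 with Tle4 fell to 0.97 and 0.94, Cux1 with Cux2 to 1.25 and 1.38, and Cux2 with Bcl11b rose to 0.84 and 0.70. All 21 control pairs and all 15 WMI pairs whose interval excluded 1 came closer to 1 within clusters. They then ranged from 0.76 to 1.37 in the control and from 0.70 to 2.16 in WMI, and have no intervals. The highest was Tbr1 with Foxp2 in WMI, which stood at 2.86 before. These pairs were chosen for odds ratios away from 1 in the same cells, which favours a move toward 1. Of the other pairs some moved closer to 1 and some away. Pou3f2 with Tbr1 in WMI went from 2.93 to 4.10, and Rorb with Tbr1 in the control from 1.03 to 1.76.

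**Figure D4:**
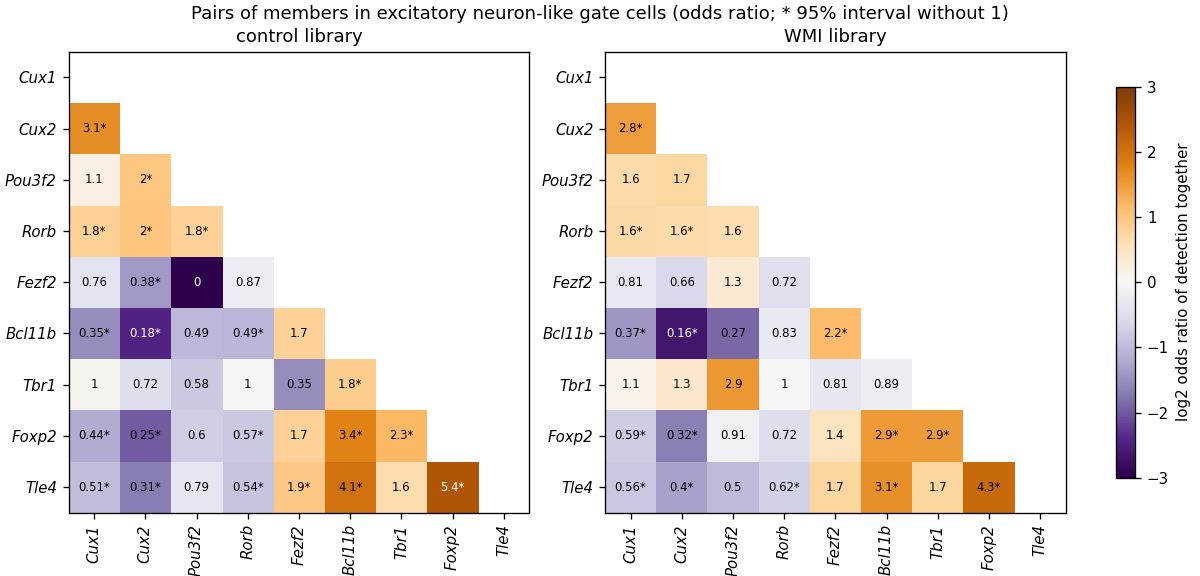
Odds ratio with which each pair of the 9 genes (both axes) was detected in the same excitatory neuron-like gate cell at 2000 UMIs per cell, control on the left and WMI on the right, coloured by log2 odds ratio, with a ratio of 0 drawn at the end of the scale; a star marks a 95% interval that excludes 1. Foxp2 with Tle4 is highest (5.40 and 4.32), and Cux2 with Bcl11b is low in both (0.18 and 0.16).

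In the whole gate 3 of the 9 members were lower in WMI by 1.5-fold or more and 0 were higher, where 4.65% of the 13964 genes with at least 200 UMIs were lower by that much and 7.33% were higher. In the excitatory neuron-like gate cells 2 of 9 were lower and 0 higher, where 3.06% of 11704 genes were lower and 3.48% higher. The median log2 ratio of all genes was 0.01 in the gate and 0.00 in the excitatory neuron-like cells, while the median of the 9 members was -0.24 and -0.35.

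The members past this fold in the excitatory neuron-like gate cells were Foxp2 and Rorb. Foxp2 was at 159 CPM in the control and 85.4 in WMI, a log2 ratio of -0.90 (-0.98 to -0.82). Rorb was at 391 and 243, a log2 ratio of -0.69 (-0.74 to -0.64). For Rorb this was -0.55 (-0.61 to -0.48) with the stricter gate and -0.11 with the 11 clusters weighted equally, both short of 1.5-fold. In the whole gate the ratios were -1.01 and -0.64, and Tbr1 was also past the fold, at 18.6 and 11.2 CPM and a log2 ratio of -0.72 (-0.90 to -0.55). In the excitatory neuron-like gate cells Tbr1 was at 18.0 and 13.3, a ratio of -0.44 (-0.65 to -0.22).

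Cux2 (220 and 158 CPM, log2 ratio -0.48) and Cux1 (262 and 206, log2 ratio -0.35) were also lower in WMI in the excitatory neuron-like gate cells, short of 1.5-fold. Tle4, at 171 and 166, had a log2 ratio of -0.04 (-0.11 to 0.02), Bcl11b, at 69.2 and 68.3, one of -0.02 (-0.12 to 0.08), and Pou3f2, at 14.4 and 14.5, one of 0.01 (-0.21 to 0.23). Fezf2 was the member with the highest ratio, at 12.9 and 16.2 CPM and 0.33 (0.12 to 0.55). For Bcl11b the whole gate gave 60.4 and 73.5, a log2 ratio of 0.28 (0.20 to 0.36), and the gate cells outside the excitatory neuron-like clusters gave 39.6 and 81.5. With cluster 5 added to the excitatory neuron-like gate cells, Cux2 was past 1.5-fold, at -0.65 (-0.71 to -0.60). Bcl11b was then at 0.30 (0.22 to 0.39) and Tle4 at -0.19 (-0.25 to -0.13). Cux2 was also lower in WMI in interneuron-like cells, at -0.49 (-0.64 to -0.34), and in astrocyte-like cells, at -0.59 (-0.99 to -0.19). In microglia-like cells Cux2 was at -0.33 (-0.72 to 0.07) and in OPC-like cells at -0.09 (-0.26 to 0.08). Cux1 was higher in WMI in microglia-like cells, at 0.45 (0.31 to 0.59). The part of free RNA in these ratios was not tested.

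The clusters rich in Foxp2 had different shares in the libraries. Cluster 10, the main Foxp2 cluster, was 14.8% of the control and 6.66% of the WMI excitatory neuron-like gate cells, while cluster 17 was 4.801% and 8.35%. Inside cluster 10 Foxp2 had a log2 ratio of -0.06 (-0.17 to 0.05) and inside cluster 17 of -0.14 (-0.36 to 0.08). Inside cluster 23 it was -0.78 (-1.14 to -0.43). In clusters with little Foxp2 the ratio varied, with -1.09 in cluster 1, -1.14 in cluster 15 and -0.30 (-0.67 to 0.06) in cluster 13. In the microglia-like cells, which are not known to make Foxp2, the level was 101 and 43.5 CPM, a ratio of -1.22 (-1.55 to -0.89). Foxp2 was lower in WMI in 11 of the 11 clusters with at least 50 gate cells in each library, and the part of free RNA in this was not tested.

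When the WMI clusters were weighted as in the control, a comparison added after the data were seen, the Foxp2 ratio was -0.21, against -0.90 without the weights and -0.70, still past 1.5-fold, with the 11 clusters weighted equally. At the control mix 0 of the 9 members were past 1.5-fold, and Rorb was at -0.42, Cux2 at -0.38, Tbr1 at -0.30, Cux1 at -0.29 and Fezf2 at 0.31. The share of all genes past 1.5-fold at this mix is not given. For Rorb, cluster 7 had both a smaller share of the excitatory neuron-like gate cells in WMI (12.04% against 16.2%) and a lower level in its cells. With 1 library per group, the injury and any difference between the samples taken cannot be told apart as sources of the cluster shares.

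In excitatory neuron-like gate cells without a UMI of Xist, the Foxp2 ratio was -0.61 (-0.73 to -0.49) and the Rorb ratio -0.40 (-0.47 to -0.33), and 1 of 9 members was past the fold. This compares 2457 control with 586 WMI cells. The share of all genes past the fold in these cells is not given, and the part of sex in these ratios was not tested.

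**Figure D5:**
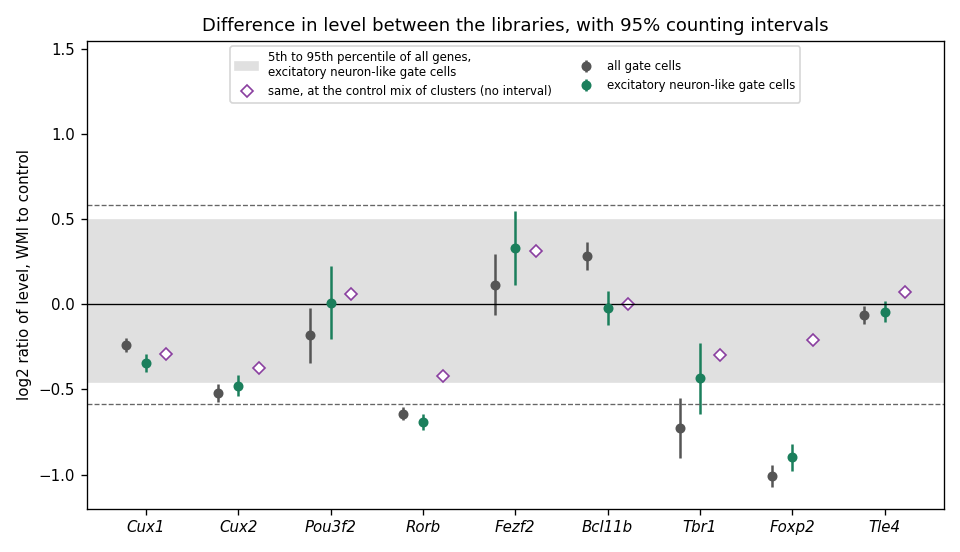
Log2 ratio of the level in WMI to that in the control (vertical axis) for each gene (horizontal axis), in all gate cells (grey), in excitatory neuron-like gate cells (green), both with 95% counting intervals, and in the latter at the control mix of clusters (open diamonds, no interval). The grey band is the 5th to 95th percentile of all genes in excitatory neuron-like gate cells and the dashed lines mark 1.5-fold; Foxp2 moves from -0.90 to -0.21 when the cluster mix is matched.

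Of 22 further transcription factors and cofactors of cortical projection neurons, 0 were past 1.5-fold in either direction in the excitatory neuron-like gate cells or in the whole gate, with medians of 0.05 and -0.08. Of all genes, 3.06% were lower and 3.48% higher by that much in the former, and 4.65% and 7.33% in the latter. Whether 0 of 22 differs from these shares or from the count of members was not tested. Tshz2, used in near-projecting neurons, had the ratio farthest from 0 in excitatory neuron-like gate cells, at 698 and 998 CPM and a log2 ratio of 0.51 (0.49 to 0.54). Etv1, a factor of layer 5, was at 72.9 and 99.5, a ratio of 0.45. Rora, the receptor related to Rorb, was at 1713 and 1441, a ratio of -0.25 (-0.27 to -0.23). Foxp1, the relative of Foxp2, was at 516 and 463, a ratio of -0.16. With clusters weighted equally, Tshz2 was at 0.12, Etv1 at 0.35, Rora at -0.21 and Foxp1 at -0.10. Tshz2, Etv1 and Rora were among the genes used to name clusters.

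Over the 25 clusters with at least 50 gate cells, the gene whose log2 level was most like that of Tle4 was Foxp2, another member (Pearson's r = 0.76). Foxp2 was most like Col5a1 (0.81), Ror2 (0.79) and Syt6 (0.78), and Syt6 was used to name the corticothalamic-like clusters. Bcl11b was most like Glra2 (0.86), Lmo3 (0.85) and Sema3e (0.83), Rorb most like Ccdc3 (0.74), Fezf2 most like Skap1 (0.73), and Tbr1 most like Fam171a2 (0.78), ahead of Neurod6 (0.77). Pou3f2 was most like Gm3764 and Bhlhe40 (0.79 each), and Cux2 most like 2610011E03Rik (0.67).

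The 3 genes most like Cux1, namely Gm38082 (0.95), Gm16599 (0.87) and A430110C17Rik (0.87), all overlap Cux1 in the annotation. Gm38082 and A430110C17Rik lie on its own strand, so they and Cux1 may count the same transcripts. Gm16599 is annotated as antisense, on the opposite strand. These correlations are over clusters that share libraries and depth, and carry no test.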

How the data were processed

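The deposited UMI counts were used as the authors made them: 1 matrix of whole-number counts per gene and barcode for each of 2 libraries, written by Cell Ranger 6.1.1 per the file headers. The labels name build mm9 and the tool Seurat, but all 55450 gene identifiers are those of GENCODE M21 (GRCm38). Whether introns were counted is not given in the sources used here. Cells needed 1000 UMIs, 500 genes and at most 10% mitochondrial UMIs, which removed 748 control and 241 WMI barcodes. Predicted doublets (785 and 542, the highest nearest-neighbour scores against simulated doublets, at 0.8% per 1000 barcodes) were removed.

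Cells of both libraries were integrated and clustered in Seurat 5.3.0 (R 4.3.3; 2000 features less the 6 members among them, 30 components, resolution 0.8). Clusters were named from fixed marker lists, by cut-offs on how many markers were present that were set after the clusters were seen. Levels are summed UMIs per 1000000 UMIs (CPM) with exact Poisson intervals. Ratios have conditional binomial intervals, shares Clopper-Pearson intervals, share differences the square-and-add combination of these, and pairs conditional odds ratios (SciPy 1.17.1), all at 95%. Shares, identities and pairs used cells thinned at random to 2000 UMIs, which left out 449 control and 352 WMI gate cells, but only 0 and 1 excitatory neuron-like ones. With 1 library per group no test was made. Alternatives (cell filters, the gate, thinning depth, resolution, cluster weights, cells without Xist) are given in the closing section. The code was tested on simulated counts of 13964 genes in the gate comparison, where 95.2% of ratio intervals held the true value.

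Named genes are the 9 members, the 22 other factors (of which 1 is not reported here singly), the gate and sex genes, and the 3 genes with the highest correlation to each member over clusters (log2 of level + 10, genes with at least 500 UMIs). The members and lists were chosen with earlier results of these data known.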

Additional observations from a re-analysis of the deposited data

Results flagged for a closer look

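The difference in Rorb level between WMI and control had opposite directions in 2 excitatory neuron-like clusters with at least 50 gate cells in each library. In cluster 13 the log2 ratio was 0.62 and in cluster 7 it was -0.72, and both counting intervals excluded 0. The difference between the clusters was not tested, since each group is 1 library.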

How the results depend on the processing

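No paired analysis was possible because each group has 1 library. The signs of the Foxp2, Rorb, Tbr1 and Cux2 ratios over gate cells were negative under every alternative run. Of 3 members past 1.5-fold in the gate, 2 to 4 were past it when 1 cell or total choice was changed, and 1 at 2-fold. Of 2 past it in excitatory neuron-like gate cells, 1 was past it with the stricter gate and 1 in cells without Xist. At the control mix of the excitatory neuron-like clusters, an alternative chosen after seeing the data, 0 were past it. The whole gate was not weighted in this way. At resolution 1.6, and with cluster 5 added, 3 were past it, Cux2 among them at -0.65 in both. With the excitatory neuron-like clusters weighted equally the 3 past the fold were Fezf2 (0.62), Foxp2 (-0.70) and Tbr1 (-0.68). Clusters with few UMIs count fully there. For Fezf2 these were cluster 25 (1 and 6 UMIs, 2.45) and cluster 15 (2 and 10). For Tbr1 they were cluster 20 (12 and 2, -2.55) and cluster 19 (13 and 2, -1.88). The share of all genes past 1.5-fold in the gate was 11.98%, and 18.3% or 6.88% with a minimum of 50 or 1000 UMIs. No such share is given for the other alternatives. The number of members highest in excitatory neuron-like cells went from 1 to 0 at resolution 1.6.

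The upper-led difference (3.92 points) was 1.29 with the stricter gate (3 Slc17a7 UMIs and no Gad UMI), 5.77 with the gate on thinned counts, 0.53 without clusters of 1 library, 1.88 at 4000 UMIs, 6.70 without thinning, 2.00 with clusters weighted equally and -0.40 without Cux1. It was 2.35 in excitatory neuron-like clusters and -0.90 in these with cluster 5. The Rorb-led difference (-3.72) was -5.64 at 4000 UMIs, -1.47 with equal weights and -5.26 without Cux1. The deep-led difference (-1.63) was -3.82 with the gate on thinned counts, -3.46 at 1000 UMIs, 1.05 at 4000 and 0.30 without thinning. The mixed difference (-0.91) was -3.07 at 4000 UMIs, 2.32 without thinning and -3.002 with equal weights. It was -1.64 in excitatory neuron-like clusters and -2.64 in these with cluster 2. Pairs found together more often (9 in the control, 8 in WMI) were 15 and 13 at 4000 UMIs and 19 and 21 without thinning. Pairs found less often (9 and 7) were 3 in WMI with the gate on thinned counts and 3 in the control without thinning. The cause of these changes was not tested. The settings with clusters 5 and 2 were added after seeing the data.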

Other observations

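The unnamed cluster 5, with 136 control and 714 WMI cells, was left unnamed because 16.6% of its cells fell in a finer cluster of another class. At the finer resolution 464 of its WMI and 55 of its control cells fell in 1 excitatory neuron-like cluster. In these cells Bcl11b was at 26.6 CPM in the control and 160 in WMI, a log2 ratio of 2.59 (1.88 to 3.40). Cux2 was at 250 and 59.5, a ratio of -2.07 (-2.35 to -1.78). Slc17a7 was at 191 and 218, and Gad1 at 8.32 and 7.49. The control Bcl11b level rests on 16 UMIs in 55 cells, and the ratios cover counting error only.

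A further part of cluster 5 was striatal projection neuron-like, with 141 WMI cells and 0 control cells. Foxp2 stood there at 597 CPM, Bcl11b at 182, Meis2 at 1570 and Penk at 103, all genes known from striatal neurons, and 46 of these cells passed the Slc17a7 gate. The WMI gate thus held some striatal projection neuron-like cells with Foxp2 and Bcl11b outside the excitatory neuron-like clusters. The injury and a difference in the tissue taken cannot be told apart here.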
